A study of Mus musculus with 9 samples.

Results

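Acetyl-CoA carries the acetyl group that acetyltransferases place on histones. The 10 genes described here make it or move its precursors: the citrate and acetate genes Slc25a1, Acly, Acss2 and Acss1, the mitochondrial pyruvate carrier genes Mpc1 and Mpc2, and the pyruvate dehydrogenase genes Pdha1, Pdhb, Dlat and Pdhx. They were chosen by name, not by their signal, but with earlier results of these data known. They are 10 of the 21883 protein-coding genes of the RefSeq GRCm38.p6 table. A peak was counted for a gene when it had at least 1 base within the gene or 2 kb on either side.

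Pyruvate enters mitochondria through a carrier made of Mpc1 and Mpc2, and the pyruvate dehydrogenase complex turns it into acetyl-CoA. In that complex Pdha1 and Pdhb form the decarboxylating E1 enzyme, Dlat is the E2 acetyltransferase, and Pdhx is the protein that tethers the E3 enzyme to the E2 core. Acetyl-CoA cannot cross the inner mitochondrial membrane, so it leaves as citrate through the carrier Slc25a1, and Acly splits the citrate again in the cytosol and nucleus. Acss2 makes acetyl-CoA from acetate in the cytosol and nucleus, and Acss1 does so in mitochondria.

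The study, whose title names cystine import and oxidative catabolism as sources for histone acetylation at endothelial genes, profiled lung endothelial cells isolated from wild-type mice. In ACT-seq, the assay used, permeabilised nuclei are given an antibody and then a Protein A/G fusion of the Tn5 transposase, which cuts and tags DNA close to the bound mark. There was 1 library each for H3K4me3, for the 7 acetylations H3K9ac, H3K27ac, H3K18ac, H4K8ac, H3K23ac, H2AK5ac and H3K14ac, and for the control antibody IgG. The labels state no age, sex, strain or number of mice, and no mutant, treatment or second condition enters this comparison. With no replicates, every value below belongs to 1 library and carries no standard deviation or p-value.

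The 9 libraries held 365999 (IgG) to 10044130 (H3K14ac) counted reads, and the other 7 held between 1477463 and 4803692. The table gives 1309635 regions under 578465 identifiers, because 8 peak lists were joined under shared names. After they were separated, each list had its highest reads per kb in the library whose name it bears here. That lead over the next library was 1.98-fold for the H3K27ac list and 2.24-fold for the H3K14ac list, with IgG next in both, and 5.15-fold to 23.8-fold for the other lists. Of 16 endothelial marker genes, 14 had peaks of all 8 lists, as did 3 of 12 epithelial, 2 of 12 leukocyte and 2 of 12 mesenchymal markers, beside 44.6% of all protein-coding genes. The median lengths of these marker genes were 27.4, 4.96, 10.3 and 33.3 kb. The H3K4me3 list covered 1256 to 3960 bp at 15 endothelial markers and 0 bp at the endothelial junction gene Cldn5, which had no peak of any list. It covered 0 to 1520 bp at the 12 epithelial markers (0 at 5, among them Ager and Sftpb), 0 to 1137 bp at the 12 leukocyte markers (0 at 4, among them Ptprc) and 0 to 938 bp at the 12 mesenchymal markers (0 at 5, among them Col1a2 and Tcf21). The highest of these were at Sftpc, Spi1 and Pdgfrb. The part of other lung cells in the values below was not tested.

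Promoters of the 3 genes with peaks of all 8 lists there (Pdha1, Pdhb and Pdhx) and of the gene with the fewest (Acss1, 2 lists) are printed to show what the windows compared below look like. Each is the 250 bases before the RefSeq start site, 5′ to 3′ on the gene's strand, in GRCm38.p6. For Pdhb these bases lie within the annotated gene span, whose 5′ end is at 8173303. Capitals mark the matches, on either strand, to 4 short motifs: the GC box GGGCGG, the CCAAT box CCAAT, the E-box CACGTG and the ETS site CCGGAAG. No matches overlapped.
Pdha1, chrX:160138431-160138680 (minus strand): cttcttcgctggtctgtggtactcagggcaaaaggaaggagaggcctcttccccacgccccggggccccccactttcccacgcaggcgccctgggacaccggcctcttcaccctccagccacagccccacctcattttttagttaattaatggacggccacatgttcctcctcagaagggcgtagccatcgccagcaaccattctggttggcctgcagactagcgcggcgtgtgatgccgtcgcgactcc
Pdhb, chr14:8172993-8173242 (minus strand): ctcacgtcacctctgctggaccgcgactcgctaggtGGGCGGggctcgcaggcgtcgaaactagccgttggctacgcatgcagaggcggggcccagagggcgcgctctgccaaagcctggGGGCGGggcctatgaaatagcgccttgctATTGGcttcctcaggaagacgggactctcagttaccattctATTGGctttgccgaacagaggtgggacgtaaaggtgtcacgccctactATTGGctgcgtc
Pdhx, chr2:103073514-103073763 (minus strand): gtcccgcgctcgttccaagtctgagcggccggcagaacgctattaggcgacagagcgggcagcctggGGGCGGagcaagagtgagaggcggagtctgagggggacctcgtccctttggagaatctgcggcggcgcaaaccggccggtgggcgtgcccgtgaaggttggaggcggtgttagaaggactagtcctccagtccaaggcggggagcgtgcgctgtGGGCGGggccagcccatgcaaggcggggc
Acss1, chr2:150668241-150668490 (minus strand): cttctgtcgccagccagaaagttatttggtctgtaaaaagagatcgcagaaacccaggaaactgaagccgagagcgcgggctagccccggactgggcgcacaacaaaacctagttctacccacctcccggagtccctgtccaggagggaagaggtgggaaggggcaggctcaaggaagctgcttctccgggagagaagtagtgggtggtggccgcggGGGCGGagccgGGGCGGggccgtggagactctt

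Pdha1 held none of the 4 motifs, although its promoter had peaks of all 8 lists. Pdhb held 2 GC boxes and 3 CCAAT boxes (read as ATTGG on the gene's strand), Pdhx held 2 GC boxes, and Acss1 held 2 GC boxes next to its start site. Of the 10 genes, 9 held a GC box, against 42.6% of 21262 promoters in the table, and 5 held a CCAAT box, against 35.4%. The ETS letters were in Acss2 and Mpc1 (2 of 10, against 8.98%) and the E-box in Slc25a1 (1 of 10, against 6.63%). A match is a description of letters and no match says nothing of the factor.

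All 10 promoters were rich in CpG. Their 250 bases held 13 (Acss2) to 32 (Mpc1) CpGs, against a median of 10 over all promoters. Over the whole table the median was 2 CpGs in promoters of genes without a promoter peak. It was 18 in promoters of genes with 7 or 8 lists there. Acss1, with 2 lists, held 15 CpGs, as did Pdha1 with 8 lists.

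At 6 of the 10 promoters the 7 lists other than H2AK5ac coincided, while H2AK5ac had a peak at 3 and Acss1 had 2 lists. A promoter was scored over 300 bases, from 250 before to 50 after the start site. Positions below are in bp from the start site along the gene, with negative values before it. All 10 genes had an H3K4me3 peak over this window (54.5% of 17491 genes with a promoter entry did). H3K27ac, H3K18ac and H4K8ac peaks lay over 9 each (52.7%, 53.3% and 52.9% of genes). H3K9ac, H3K23ac and H3K14ac peaks lay over 8 each (41.7%, 42.2% and 53.8%), and H2AK5ac peaks over 3 (20.4%). Peaks of at least 7 lists were over 6 of the 10 promoters, against 35.1% of genes, and peaks of all 8 over 3, against 15.6%. All 7 lists other than H2AK5ac met over 6 of the 10, against 32.6% of genes. None of the 10 genes was without a peak over a promoter window, as 33.8% of the 17491 genes were.

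**Figure D1:**
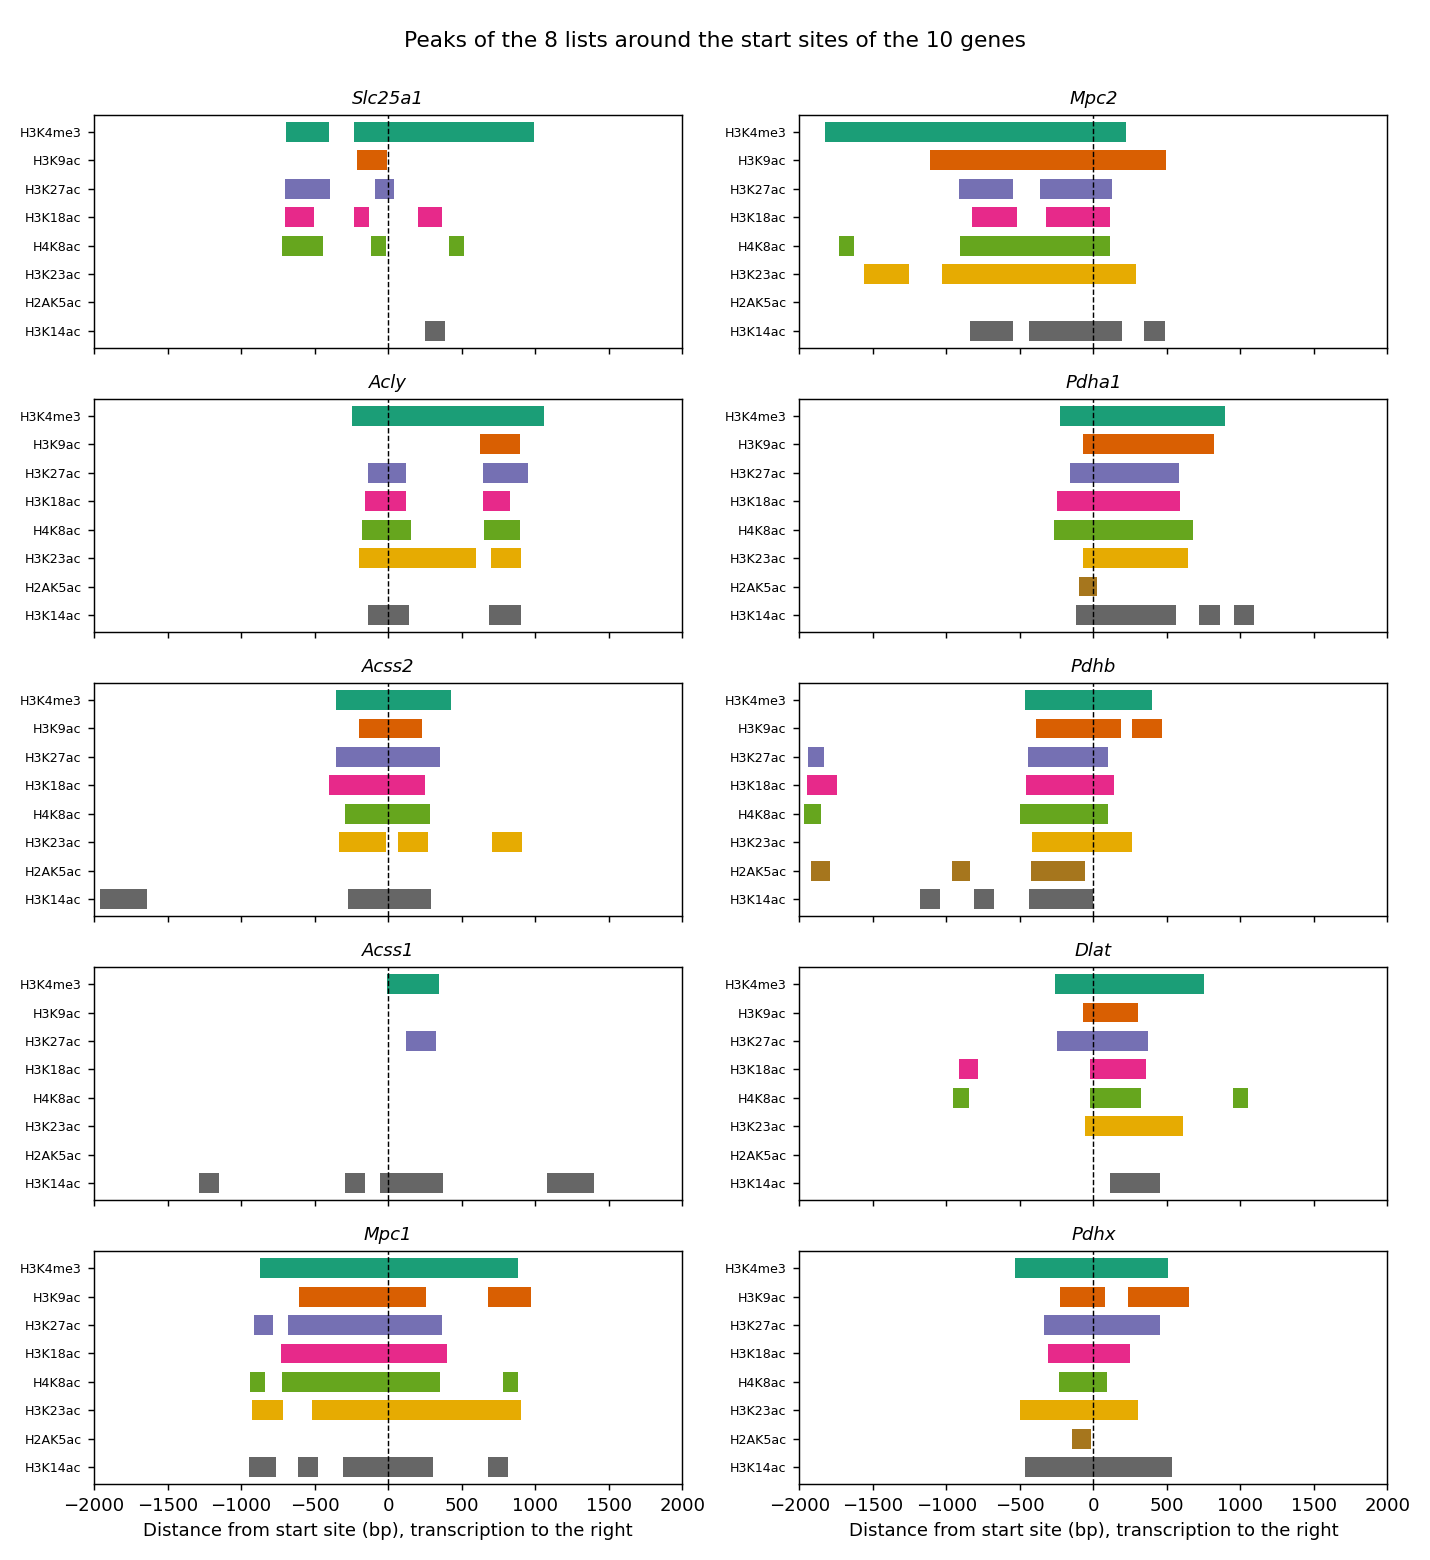
Peaks of the 8 lists within 2000 bp of the start site of each of the 10 genes. The horizontal axis is the distance from the start site in bp, with transcription to the right, and each bar is a peak drawn to scale. Pdha1, Pdhb and Pdhx have bars of all 8 lists over the 300-base promoter window, and Acss1 has those of H3K4me3 and H3K14ac.

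Peaks were also counted over the whole gene and its 2 kb flanks. Peaks of all 8 lists were at 4 of the 10 genes, against 44.6% of protein-coding genes, and of at least 7 lists at 8, against 59.0%. All 7 lists other than H2AK5ac were at the same 8 genes, against 53.8% of genes. H3K4me3, H3K9ac, H3K27ac, H4K8ac and H3K14ac peaks were at all 10 genes (69.6%, 59.2%, 71.6%, 75.4% and 89.8% of genes). H3K18ac and H3K23ac peaks were at 9 (77.3% and 69.7%), and H2AK5ac peaks at 4 (55.2%). The median length of the 10 genes was 22.6 kb, against 17.2 kb for all protein-coding genes. With only peaks wider than their list's minimum, 1 of the 10 genes in place of 4 had all 8 lists (18.6% of genes). In that setting 1 in place of 4 had an H2AK5ac peak, and 8 still had at least 7 lists (40.6% of genes).

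**Figure D2:**
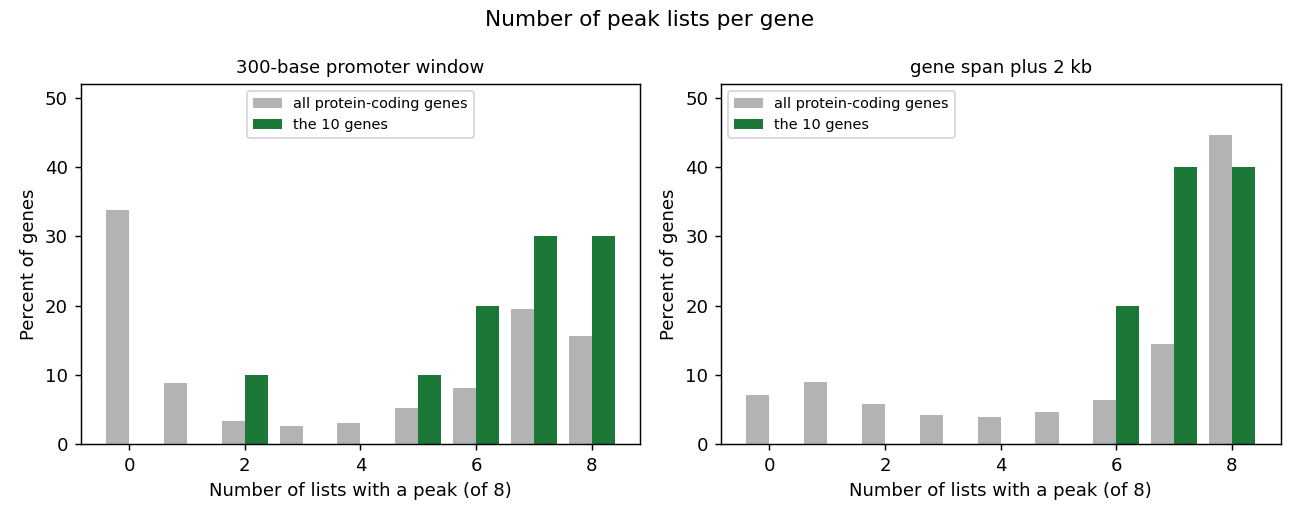
Number of lists with a peak, from 0 to 8 (horizontal axis), against the percent of genes (vertical axis), for the 300-base promoter window on the left and the gene span plus 2 kb on the right. Grey bars are all protein-coding genes (on the left the 17491 with a promoter entry) and green bars the 10 genes. In the left panel 33.8% of the genes with a promoter entry and none of the 10 sit at 0. In the right panel the bars at 8 stand at 44.6% and 4 of 10.

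The 10 genes carried 214 peaks in all. Of the 67 over a promoter window, 7 (10.4%) had the minimum width of their list. Of the 147 elsewhere, 101 (68.7%) had it, and such peaks are the shortest that the list holds. The minimum widths ran from 102 bp for H4K8ac to 206 bp for H3K23ac, so widths are compared within a list only.

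Slc25a1, the citrate carrier (gene 13358, chr16:17925211-17928219, minus strand), had 13 peaks of 6 lists and none of H3K23ac or H2AK5ac. Its H3K4me3 peak was 1228 bp wide and ran from -233 to 994 bp. The acetylation peaks over its promoter were short, at 204 bp for H3K9ac, 125 bp for H3K27ac, 104 bp for H3K18ac and 102 bp for H4K8ac. Its single H3K14ac peak, 138 bp wide, lay inside the gene. A further region from -723 to -394 bp joined peaks of H3K4me3, H3K27ac, H3K18ac and H4K8ac, and there the H3K27ac peak (306 bp) and the H4K8ac peak (280 bp) were wider than at the promoter itself. Slc25a1 lies in a run of regions with 0 reads described further on, and the part of this run in its short and missing peaks was not tested.

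Acly, ATP citrate lyase (gene 104112, chr11:100476352-100528000, minus strand), had the most peaks of the 10 genes, 43 of all 8 lists. It also had the most bases covered by H3K4me3, 2210 bp, at percentile 91.9 of protein-coding genes. Its widest H3K4me3 peak was 1308 bp and ran from -246 to 1061 bp. The acetylation peaks fell into 2 groups beneath it. One, at the start site, joined H3K27ac (259 bp), H3K18ac (277 bp), H4K8ac (336 bp), H3K23ac (797 bp) and H3K14ac (284 bp). The other, with midpoints 739 to 802 bp into the gene, joined the same 5 acetylations and H3K9ac (267 bp), which had no peak over the promoter window. Its only H2AK5ac peak, 129 bp wide, lay 44865 bp into the gene. Of 22 separate peak regions at Acly 18 held 1 list, but 4 lists met from 33618 to 34166 bp and 5 lists from 3322 to 3653 bp into the gene.

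Acss2, the cytosolic and nuclear acetyl-CoA synthetase (gene 60525, chr2:155518043-155562743, plus strand), had 27 peaks of 7 lists, with H2AK5ac missing. Its promoter peaks were 783 bp for H3K4me3, 708 bp for H3K27ac, 652 bp for H3K18ac, 582 bp for H4K8ac, 567 bp for H3K14ac, 429 bp for H3K9ac and 323 bp for H3K23ac. About 20 kb into the gene, 3 lists met from 19726 to 20085 bp and 5 from 20353 to 20698 bp.

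Acss1, the mitochondrial acetyl-CoA synthetase (gene 68738, chr2:150618111-150668240, minus strand), had the profile farthest from the other 9 genes, by the distance given further on. Over its promoter window lay an H3K4me3 peak of 351 bp and an H3K14ac peak of 424 bp, with a second H3K14ac peak of 138 bp before them. An H3K27ac peak of 206 bp started past the window, with its midpoint 221 bp into the gene. Of its 23 peaks 18 were of H3K14ac, covering 3022 bp, the highest H3K14ac coverage of the 10 genes and percentile 83.8 of all protein-coding genes. Its H3K4me3 coverage of 351 bp was the lowest of the 10, at percentile 40.4. The remaining peaks were of H3K9ac (204 bp), H4K8ac (102 bp) and H3K23ac (206 bp), each at its list's minimum width and 7534 to 39976 bp into the gene, and no H3K18ac or H2AK5ac peak was listed. Without peaks of minimum width Acss1 had 3 lists in place of 6. The span of Gm52532, a long non-coding RNA gene at chr2:150615116-150650549, holds the H3K9ac peak and a part of the H3K14ac peaks. Those peaks cannot be assigned to either gene. The long non-coding RNA E130215H24Rik starts 746 bp from Acss1 and is transcribed towards and across its start site on the opposite strand, so their peaks cannot be told apart.

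**Figure D3:**
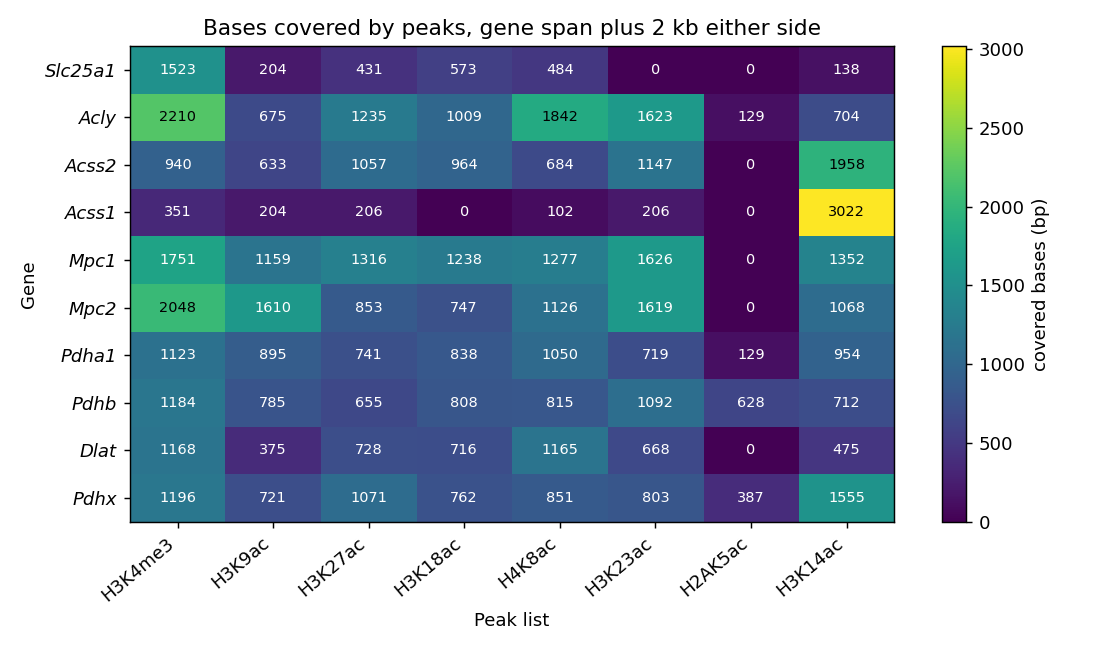
Bases covered by the peaks of each list (columns) in the span of each of the 10 genes (rows) plus 2 kb either side, in bp, with darker cells for fewer bases. Acss1 has 3022 bp of H3K14ac and 0 to 351 bp of the other lists, and the H2AK5ac column is 0 at 6 genes.

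The carrier genes Mpc1 and Mpc2 had the widest H3K4me3 peaks of the 10. That of Mpc1 (gene 55951, chr17:8283787-8297667, plus strand) was 1751 bp and ran from -868 to 882 bp. That of Mpc2 (gene 70456, chr1:165461260-165481218, plus strand) was 2048 bp and ran from -1822 to 225 bp. For comparison, the middle 50% of H3K4me3 promoter peaks over all genes ran from 717 to 1237 bp, around a median of 963 bp.

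Both carriers lacked H2AK5ac and had the other 7 lists over their promoters. At Mpc1 those acetylation peaks were 1420 bp for H3K23ac, 1134 bp for H3K18ac, 1073 bp for H4K8ac, 1045 bp for H3K27ac, 867 bp for H3K9ac and 615 bp for H3K14ac. At Mpc2 they were 1610 bp for H3K9ac, 1316 bp for H3K23ac, 1024 bp for H4K8ac, 637 bp for H3K14ac, 485 bp for H3K27ac and 437 bp for H3K18ac. All 13 peaks of Mpc2 fell in 1 continuous region of 2318 bp. Most of it lies before the Mpc2 start site, where the gene Dcaf6 lies on the opposite strand, with its span ending 354 bp from the Mpc2 start site and its RefSeq promoter-table start site at 797 bp, so the share of each gene in these peaks cannot be told apart. At Mpc1, which has 2 annotated start sites, 15 of 19 peaks formed a region of 1917 bp.

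Mpc1 and Mpc2 were also the most alike of the 10 genes. The distance between their profiles, taken as the Euclidean distance of log2(covered bases + 1) over the 8 lists, was 1.16. The next closest were Pdhb and Pdhx at 1.57. Acss2 was nearest to Mpc1 (1.77), Pdha1 to Pdhx (1.87), Acly to Pdha1 (1.99) and Dlat to Acss2 (2.55). Slc25a1 and Acss1 were far from all others, each with Dlat as its nearest gene, at 9.72 and 10.9. A list with no peak weighs heavily in this measure. The protein-coding genes closest to the median profile of the 10 were Ccar2 (0.239), Dynll2 (0.399) and Ppp6c (0.427).

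The pyruvate dehydrogenase genes had start-site regions of 965 to 1181 bp in which 7 or 8 lists met. This was not particular to them, since 7 lists met in 833 bp at Acss2. Pdha1 (gene 18597, chrX:160122219-160138430, minus strand) had 11 peaks, 9 of them in 1 region of 1165 bp that held all 8 lists. Its promoter peaks were 1123 bp for H3K4me3, 948 bp for H4K8ac, 895 bp for H3K9ac, 838 bp for H3K18ac, 741 bp for H3K27ac, 719 bp for H3K23ac, 678 bp for H3K14ac and 129 bp for H2AK5ac. All but the H2AK5ac peak, which ran from -101 to 27 bp, reached over 500 bp into the gene. The long non-coding RNA Gm39547 starts 183 bp into Pdha1 on the same strand.

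Pdhb (gene 68263, chr14:8165991-8173303, minus strand) had 21 peaks of all 8 lists, of which 9 formed a region of 965 bp over the start site at 8172992. This start site, from which positions are counted, lies inside the gene span. Pdhb also had 1 start site only in the promoter table. It had the most H2AK5ac of the 10 genes, 628 bp in 3 peaks, at percentile 85.5 of protein-coding genes. The H2AK5ac peak over its promoter was 370 bp, ran from -424 to -55 bp, and was the only H2AK5ac peak of the 10 genes wider than its list's minimum of 129 bp. Its other promoter peaks were 870 bp for H3K4me3, 680 bp for H3K23ac, 602 bp for H3K18ac, 595 bp for H4K8ac, 581 bp for H3K9ac, 545 bp for H3K27ac and 436 bp for H3K14ac. Peaks of H3K27ac, H3K18ac, H4K8ac and H2AK5ac met again from -1968 to -1742 bp. Past the 3′ end, the H3K4me3 and H3K23ac peaks at chr14:8164281-8164828 lie within the gene Pxk, whose span ends at 8165117. They cannot be assigned to either gene.

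Dlat (gene 235339, chr9:50634633-50659780, minus strand) had 21 peaks of 7 lists. Its promoter had H3K4me3 (1011 bp), H3K23ac (668 bp), H3K27ac (620 bp), H3K18ac (379 bp), H3K9ac (375 bp) and H4K8ac (342 bp) peaks. The H3K14ac peak of 337 bp began past the window, with its midpoint 282 bp into the gene, and no H2AK5ac peak was listed. H4K8ac was the most frequent list at Dlat, with 9 peaks, 7 of them at the minimum width of 102 bp.

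Pdhx (gene 27402, chr2:103021055-103073513, minus strand) had 23 peaks of all 8 lists and a start-site region of 1181 bp. It had the widest H3K14ac promoter peak of the 10 genes, 1003 bp, where the median over all genes was 331 bp. Its other promoter peaks were 1039 bp for H3K4me3, 803 bp for H3K23ac, 792 bp for H3K27ac, 557 bp for H3K18ac, 327 bp for H4K8ac, 305 bp for H3K9ac and 129 bp for H2AK5ac. H3K27ac, H3K18ac, H4K8ac and H3K14ac peaks met again from 14112 to 14490 bp into the gene. The gene Apip starts 162 bp from Pdhx on the opposite strand, so peaks over this shared start region cannot be assigned to either gene. Pdhx also lies in a run of regions with 0 reads described further on, and the part of this run in its peaks was not tested.

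Among promoters with a peak of the list, median peak widths of the 10 genes lay above those of all genes for 6 lists. They were 1081 bp against 963 bp for H3K4me3, 620 against 463 bp for H3K27ac, 557 against 430 bp for H3K18ac, 582 against 413 bp for H4K8ac, 758 against 534 bp for H3K23ac and 591 against 331 bp for H3K14ac. They were 505 against 566 bp for H3K9ac and 129 bp in both for H2AK5ac. For H3K4me3, H3K9ac, H3K27ac, H3K18ac, H4K8ac and H3K23ac the median of the 10 lay within the middle 50% of all genes, and for H3K14ac it lay above the upper quartile of 521 bp.

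A further list of genes around acetyl-CoA and pyruvate gave the setting, and 37 of its 38 genes were found in the table. Of these 27 had peaks of all 8 lists in the gene span plus 2 kb, again beside 44.6% of all protein-coding genes. Of the 37, 36 had H3K4me3 peaks (69.6% of all genes), 31 H3K9ac (59.2%), 34 H3K27ac (71.6%) and 36 H3K18ac (77.3%). H4K8ac peaks were at 35 (75.4%), H3K23ac at 35 (69.7%), H2AK5ac at 30 (55.2%) and H3K14ac at 37 (89.8%). Of the 31 with a promoter entry, 20 had at least 7 lists over the promoter (35.1% of all genes with such an entry), 8 had all 8 (15.6%) and 3 had none (33.8%).

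The kinases that phosphorylate and inhibit pyruvate dehydrogenase all had peaks of the 8 lists. Pdk1 had 19 peaks with 970 bp of H3K4me3, Pdk2 16 with 1158 bp, Pdk3 27 with 766 bp and Pdk4 14 with 747 bp. Over their promoters Pdk2 and Pdk4 had all 8 lists, and Pdk1 and Pdk3 had 6. Dld, the E3 enzyme of the complex, had 17 peaks of 7 lists, with H2AK5ac missing as at Dlat.

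The fewest lists were at Pdha2, the testis form of the E1 alpha subunit, with 231 bp of H3K14ac and no other peak, in contrast to its X-linked relative Pdha1. Acss3, an acyl-CoA synthetase of the Acss family, and Nat8l, which makes N-acetylaspartate, followed with 5 lists each. The cytosolic malic enzyme gene Me1 had the most peaks, 107 over 115 kb.

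Reads could be placed at these genes only in part. An identifier's reads were used where its only region with bases outside other identifiers' regions lay at the gene (a placeable region). The reason is that a read over regions of several identifiers was discarded, and a read under a shared name can come from elsewhere. The 10 genes had 39 placeable regions, 31 of them with no shared base at all. Of the 381479 such regions genome-wide 99.0% come from the H3K14ac list, so these reads describe the edges and bodies of the genes more than their promoters. IgG had 0 reads in all 39, where only 0.156% of all identifiers of the table had an IgG read. A floor of 3 IgG reads, used for a count of 0, equals 8.20 CPM (reads per 1000000 counted reads of a library). The exact interval for 0 reaches 10.1 CPM, so low values of the marks are not separable from control. Intervals below are exact 95% Poisson intervals, which treat reads as independent and cover counting error only. Mates were counted singly and removal of duplicates is not known, so the intervals can be too narrow even for that.

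Acss1 had the most placeable regions, 18 over 2640 unshared bases, and the most reads. How many regions are placeable follows from the shared names and overlaps, so these sums do not compare the genes in their marks. H3K14ac gave 338 reads (303 to 376), or 33.7 CPM. H3K27ac gave 27 (17.8 to 39.3), H3K4me3 17 (9.90 to 27.2) and H3K9ac 16 (9.15 to 26.0), while the other libraries gave 0. H3K14ac reads were spread over the gene, with 9 to 48 in each of the 18 regions. Within 200 kb of Acss1, the 94 H3K14ac regions with no shared base had a median of 16 reads. The median over all such regions of the table was also 16. H3K9ac reads were all in 1 region, 40117 bp into the gene, which overlaps the H3K9ac peak there, and 10 of the 17 H3K4me3 reads were in 1 region 14677 bp into the gene. All 18 regions are peaks of the H3K14ac list, so the H3K14ac reads there are no independent support for those peaks.

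Acss2 had 8 such regions over 1134 bases. Its H3K14ac reads all lay in peaks of the H3K14ac list and are no independent support for them. H3K14ac gave 170 reads (145 to 198) and H3K27ac 40 (28.6 to 54.5), or 16.9 and 15.8 CPM, with overlapping intervals on that scale. H3K18ac gave 7 reads and H4K8ac 4. Of the H3K27ac reads 20 lay in a region centred at -1798 bp, beside 28 of H3K14ac, and 13 lay 22915 bp into the gene. The region with the most H3K14ac reads, 74, lay near the 3′ end and had 1 read of H3K27ac. The region 34144 bp into the gene, with 12 H3K14ac reads, lies within the long non-coding RNA gene Acss2os and cannot be assigned to either gene.

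Pdha1 had 2 such regions, 1 a peak of the H3K14ac list and 1 a peak of the H4K8ac list. One, 1026 bp into the gene, had 44 H3K14ac, 20 H3K4me3, 18 H3K18ac and 14 H3K27ac reads. The other, an H4K8ac peak of 102 bp and 8803 bp into the gene, had 20 H4K8ac reads (12.2 to 30.9) and 0 of every other library. No other list has a peak there, so this contrast follows largely from how the regions were chosen. Reads of a mark in a peak of its own list are no independent support for that peak. On the scale of library depth the order in the former region changed, with H3K4me3 at 13.5 CPM, H3K18ac at 11.6, H3K27ac at 5.53 and H3K14ac at 4.38.

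At the other genes few reads could be placed, and those of H3K14ac again lay in peaks of its own list. Dlat had 24 H3K14ac and 3 H3K27ac reads in 2 regions. Mpc1 had 14 H3K14ac, 7 H3K27ac and 2 H4K8ac reads in 3 regions. Of these, the 14 H3K14ac, 5 H3K27ac and 2 H4K8ac reads lay in 1 region past the 3′ end of Mpc1. That region is within the long non-coding RNA gene 4930506C21Rik (chr17:8293366-8311118), so its reads cannot be assigned to either gene. Acly had 9 H3K4me3 reads in 1 region with 23 unshared bases, and Pdhb had 2 H3K18ac reads and 1 H3K27ac read in 1 region. Slc25a1 and Mpc2 had no placeable region. Neither H3K23ac nor H2AK5ac had a read in any of the 39 regions. Over the whole table, only 10.5% of identifiers had H3K23ac reads and 5.39% had H2AK5ac reads.

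**Figure D4:**
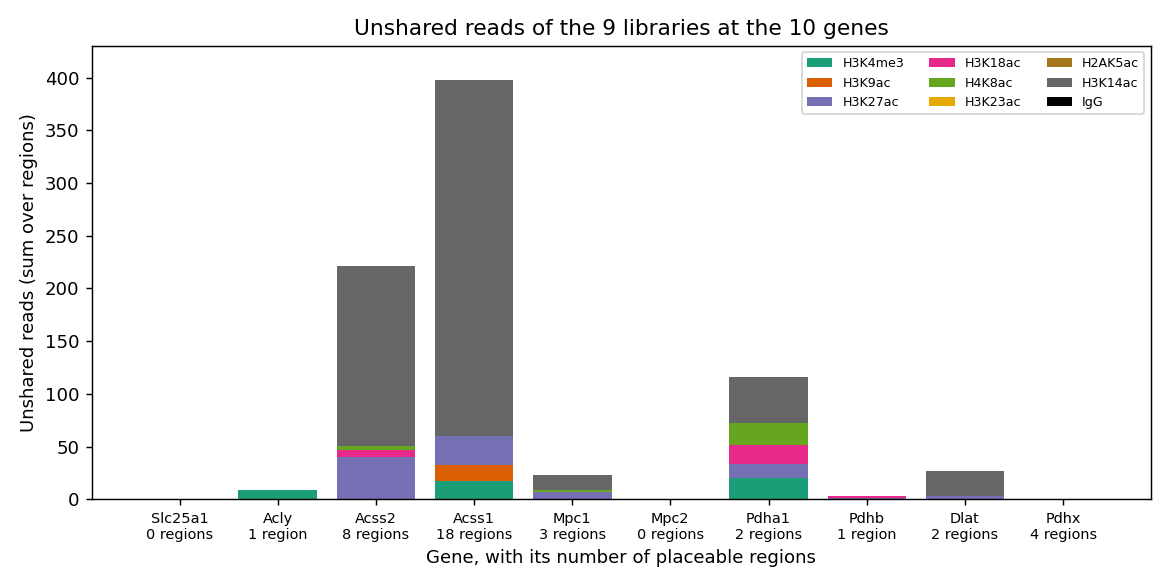
Reads in placeable regions (vertical axis, summed over regions) at each of the 10 genes (horizontal axis, with the number of regions), stacked by library. Acss1 holds 338 H3K14ac reads in 18 regions. Pdhx holds none in 4 regions, and Slc25a1 and Mpc2 have no placeable region.

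Set against IgG, regions with at least 10 reads of the mark and IgG together were called when the mark was at least 2-fold higher in CPM. A prior count of 2 was scaled to each library's depth. With that prior, a region with 10 reads of a mark and 0 of IgG passes in every library, so the calls here follow from the rule. H3K14ac was called in 25 of 25 such regions of these genes (99.9% of all placeable regions with at least 10 reads), H3K27ac in 3 of 3 (98.9%) and H3K4me3 in 2 of 2 (94.9%). H3K9ac, H3K18ac and H4K8ac were called in 1 of 1 (83.3%, 97.0% and 96.4%). H3K23ac and H2AK5ac had no region with 10 reads here (90.6% and 87.4% of those elsewhere were called). The shares at these genes are those of the background. Only 1 region each of H3K4me3, H3K9ac, H3K18ac and H4K8ac, and none of H3K27ac or H3K14ac, lay above the 8.20 CPM of the IgG floor. The H3K9ac region, at 9.83 CPM, lay below the upper bound of 10.1 CPM of the exact IgG interval.

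The 4 placeable regions of Pdhx had 0 reads in all 9 libraries although they are peaks of the H3K14ac list, and their surroundings were alike. Over the table, 3.58% of the 328198 H3K14ac regions with no shared base had 0 H3K14ac reads, and the median was 16 reads. Within 200 kb of Pdhx 38 of 93 had 0, and the gene lay in a run of 9 such regions at chr2:103007836-103129636. Within 200 kb of Slc25a1 25 of 27 had 0. That gene lay in a run of 92 such regions at chr16:17750947-19061436, of which 90 had 0 in every library, although 655 peaks of all 8 lists lie within it. Cldn5, at chr16:18776847-18778262, lies in the same run.

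Near the other genes such regions were fewer. They were 9 of 71 at Mpc1, 2 of 94 at Acss1, 1 of 5 at Acly, 1 of 9 at Pdhb, and 0 of 37, 51 and 37 at Acss2, Pdha1 and Dlat. Mpc2 had no region of this kind within 200 kb. The count of 0 at Pdhx is thus shared with its surroundings and is not read as a low level of the mark. The cause of these runs was not tested.

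**Figure D5:**
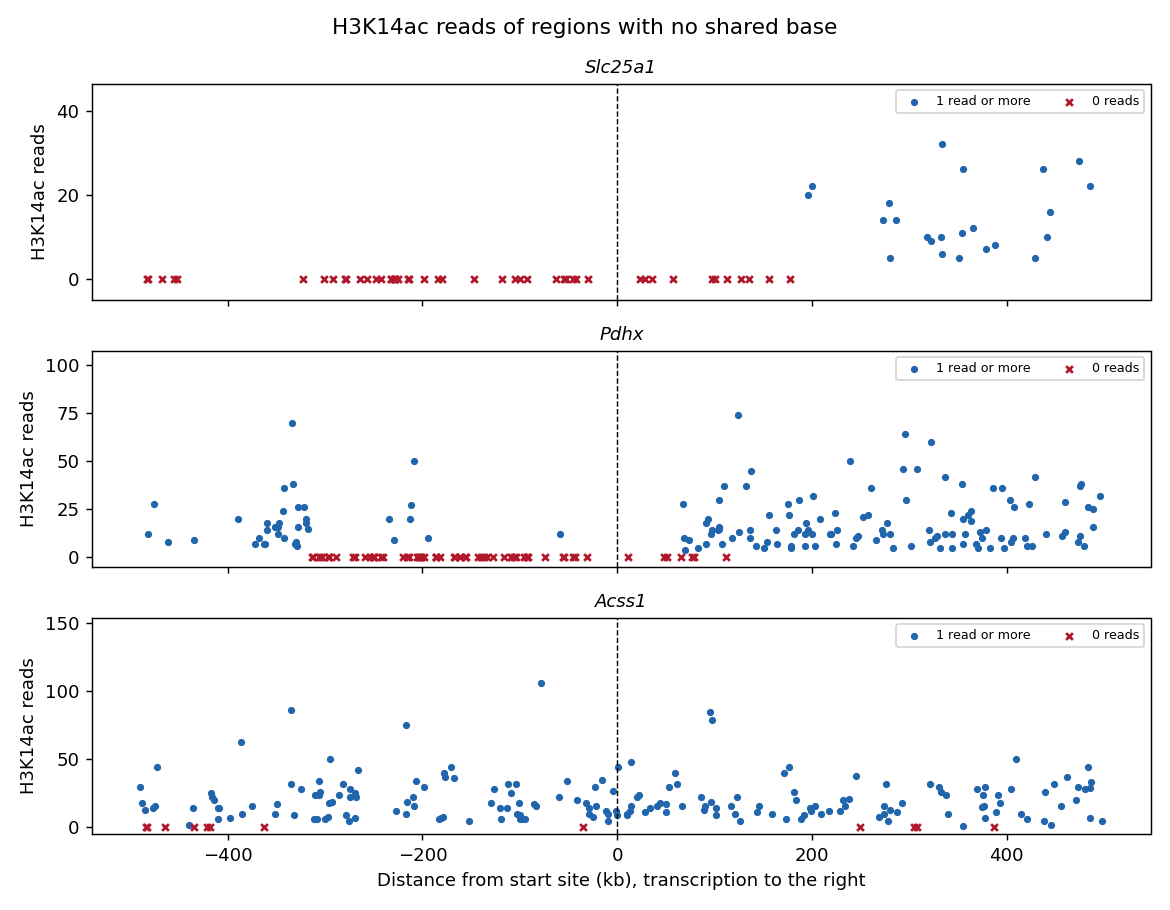
H3K14ac reads (vertical axis) in regions of the H3K14ac list with no shared base, by distance from the start site in kb (horizontal axis, transcription to the right), for Slc25a1, Pdhx and Acss1. Each point is a region and red crosses have 0 reads; 25 of 27 regions within 200 kb of Slc25a1, 38 of 93 of Pdhx and 2 of 94 of Acss1 are crosses.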

How the data were processed

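Per the file headers, the authors counted reads of 9 libraries in peak regions with featureCounts 2.0.6, unstranded, with paired-end input but each mate counted by itself and reads over several identifiers dropped. The deposited values are raw read counts. The submitters' processing notes also name Trim Galore, STAR and MACS2 and the builds mm10 and GRCm38.p6; settings of the aligner and peak caller, and any removal of duplicates, are not given in the sources here. The listed options include none for counting multi-mapping reads.

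The 8 lists were separated so that each runs in genome order and keeps its minimum width. On simulated lists 99.97% of 91140 regions returned to their own list. Those lists were placed independently, with widths drawn from the minimum widths and shares that the separation uses. Real peaks overlap across lists, so this is no error rate for these data. By genome order alone, 6031 of the 1309635 regions were assigned differently. Starts were counted from 0 in the table and are printed from 1. Genes, start sites and promoter sequences came from RefSeq tables of GRCm38.p6, in which all 10 genes were matched. CPM is reads per 1000000 of a library's table total. Python 3.11.15, numpy 2.4.6, pandas 2.3.3 and scipy 1.17.1 were used. DESeq2 is named in the submitters' notes and was not run, since each target has 1 library.

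Members, gene lists and measures were chosen with earlier results of these data known. The promoter window, the motifs and the search for runs of 0 reads were added after the data were seen. All 10 genes are named, as are, of the further list, the Pdk genes and those with the most and fewest lists or peaks; Dld and the named marker genes were added after their values were seen. The named promoters are those with the most and the fewest lists.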

Additional observations from a re-analysis of the deposited data

How the results depend on the processing

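No paired analysis was possible because each target had 1 library. Of 123 alternative values of the main results, 111 stayed within 1.5 times the reported value and 12 moved further. These are counts or CPM without a sign. Some were 0 under every setting or at the limit of 10 genes, so the 111 include values with little room to move. With only peaks wider than their list's minimum, the 10 genes had 106 peaks in place of 214, and 1 gene in place of 4 had an H2AK5ac peak. With the 2 kb windows at the gene ends only they had 130 peaks. With regions that share no base only, the 16 H3K9ac reads fell to 0, and with the gene span alone the H3K27ac reads fell from 92 to 53. Called regions rose from 2 to 4 (at least 5 reads) and 6 (no minimum of reads) for H3K4me3, from 3 to 7 and 13 for H3K27ac, from 1 to 2 and 3 for H3K18ac, and from 1 to 3 for H4K8ac with no minimum. These follow from the number of regions each setting admits. Of 122 values for single genes and marker lists, 106 stayed within that bound and 16 did not; Acss1 had 3 lists in place of 6 with wider peaks only or at the gene ends only. Of all protein-coding genes, 18.6% (main 44.6%) and 1 of the 10 (main 4) had all 8 lists with wider peaks only. At least 7 lists were then at 40.6% (main 59.0%) and at 8 of the 10 (main 8).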
